A study of Mus musculus with 110 samples.

Results

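The stretch described here is the interval on mouse chromosome 12 between Ighd1-1 (DFL16.1), the VH-side end of the main D cluster, and the VH region. Its members are all junction lines of the full libraries whose prey end lies on chr12 from position 114739545 to 114829804 in the coordinates of the deposited files, which are those of a genome in which the Igh locus was replaced. The rule used position alone. It found 1192 of 3602400 junction lines, a share of 0.0331%, in 86 of 98 libraries and 52 of 56 replicates from all but 1 of the 13 groups. Replicates held from 1263 to 231023 lines in all, fewest with IAA in the Rad21degron groups, and 956 of the interval lines were distinct in position, strand, bait end and insert within their library. Of the 1192 lines, 1157 were matched by sequence to the mm9 assembly, and mm9 coordinates below come from those matches. The matches spanned chr12:114725666-114807200, and the labels give no coordinates for IGCR1 or for its deletion.

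The study read V(D)J joins made by RAG from a JH4 bait by LAM-HTGTS, in which DNA is copied linearly from a primer at the bait and the sequence joined to it is read as the prey. All groups but 1 were v-Abl transformed pro-B cell lines that lacked RAG2, carried an Emu-Bcl2 transgene, were nucleofected with RAG2 and were held in 3 uM STI-571 for 4 days. The genotypes were the parental line, Ostir1 knock in only, CTCF-mAID-GFP tagging only, CTCFdegron, Rad21degron, and IGCR1deleted on the Rad21degron background. Each was measured untreated and with 500 uM IAA, begun 6 h before STI-571. The remaining group was pro-B cells sorted as B220+CD43+IgM- from the bone marrow of wild-type 129SV mice. Parental, Ostir1 knock in and CTCF-mAID-GFP cells had 4 replicates per treatment, CTCFdegron cells 6, Rad21degron cells 3, IGCR1deleted Rad21degron cells 4, and bone marrow 6. The labels do not say that replicates were separate cultures or mice, or whether a line is 1 clone, so p-values measure only the spread between these samples.

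V(D)J recombination joins a D to a JH first and a VH to that DJ second, and RAG cuts at recombination signal sequences (RSSs), each a heptamer, a spacer and a nonamer. IGCR1 is a control region between VH and D whose CTCF sites hold the VH genes apart from the recombination centre around the most JH-proximal D, JH and the intronic enhancer. Cohesin, of which Rad21 is a subunit, extrudes chromatin loops past that centre until CTCF bound in the convergent orientation impedes it, and RAG scans the chromatin brought past. Ostir1 directs a protein fused to a degron to destruction when the auxin IAA is added. STI-571 stops v-Abl lines in G1 and switches on their RAG genes.

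The interval is not without D segments. The mm9 annotation places Ighd3-1 (Gm16967) at chr12:114763524-114763540, 43.1 kb upstream of Ighd1-1, Ighd5-1 (Gm17483) at chr12:114765011-114765020, 44.6 kb upstream, and the D gene Gm16968 at chr12:114766243-114766265, 45.9 kb upstream, all on the minus strand. The other annotated genes there are Adam6b, 7.4 kb upstream, and Adam6a, 61.7 kb upstream, which code for sperm proteins. Merging positions within 5 bases gave 114 sites, of which 59 held 1 line. The 8 plus sites with the highest mean share over groups account for 911 lines and carry the pattern described below, so their sequences are printed next, from mm9, minus strand, 5′ to 3′, with the D or cryptic coding end first. The capitals mark the 7 bases that start with the CAC nearest the junction, where a heptamer would lie. Sites outside annotated D segments are named by their distance upstream of Ighd1-1.
Ighd3-1, chr12:114763485-114763539: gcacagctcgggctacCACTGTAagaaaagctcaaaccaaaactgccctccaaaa
43.9-kb site, chr12:114764273-114764327: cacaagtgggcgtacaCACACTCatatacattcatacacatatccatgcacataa
42.6-kb site, chr12:114762960-114763014: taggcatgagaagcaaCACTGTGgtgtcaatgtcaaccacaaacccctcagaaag
42.5-kb site, chr12:114762850-114762904: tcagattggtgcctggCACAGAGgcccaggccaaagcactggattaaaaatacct
35.3-kb site, chr12:114755639-114755693: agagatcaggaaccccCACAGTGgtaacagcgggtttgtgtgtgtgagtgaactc
21.1-kb site, chr12:114741440-114741494: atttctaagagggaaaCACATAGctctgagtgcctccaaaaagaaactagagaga
30.8-kb site, chr12:114751162-114751216: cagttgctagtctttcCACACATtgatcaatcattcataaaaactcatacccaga
Gm16968, chr12:114766204-114766258: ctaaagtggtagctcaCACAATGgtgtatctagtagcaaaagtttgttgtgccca

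Ighd3-1 was the most used site, with 528 lines, of which 402 were distinct, in 75 libraries and 12 groups. Its heptamer CACTGTA matched the consensus CACAGTG at 5 of 7 bases, and the nonamer ACCAAAACT after a spacer of 12 bases matched ACAAAAACC at 7 of 9. Of the 1286 CAC triplets that the minus strand of the interval holds, 28.9% had 5 or more heptamer matches and 0.544% had 7 or more nonamer matches after 12 bases. The 43.9-kb site held 116 lines in 43 libraries, with 5 heptamer matches and 6 nonamer matches after 12 bases. The 42.6-kb site held 72 lines and the 42.5-kb site 55, with 6 heptamer matches each. The 35.3-kb site held 49 lines and the full heptamer CACAGTG, which 1.09% of the CAC triplets had. It matched 0 of 9 nonamer bases after a spacer of 12 and 4 of 9 after a spacer of 23. After 23 bases the 42.5-kb site matched 5 of 9 and the 42.6-kb and 30.8-kb sites 3 each. The median over the CAC triplets was 2, and 7.78% had 5 or more. The 21.1-kb site held 37 lines, the 30.8-kb site 27 and Gm16968 27. Ighd5-1 held 16 lines, 3 bases from a full heptamer. A CAC lay directly at the junction in 437 of 1144 matched plus lines (38.2%) and at 47 of 253 distinct junction positions (18.6%), against 1286 of 81535 positions of the interval (1.58%). Within 12 bases a CAC was found for 88.9% of lines, 77.9% of distinct junction positions and 13.2% of all positions. A motif match is a description of the letters and not of a site that RAG was shown to use.

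Junctions were concentrated around Ighd3-1. Of all interval lines, 1179 were in plus orientation, in which the prey runs from the junction away from JH4 as joining by deletion gives, and 13 were in minus orientation. The 10-kb bin from 40 to 50 kb into the interval, which holds Ighd3-1, Ighd5-1, Gm16968 and the sites at 42.5, 42.6 and 43.9 kb, took 897 plus lines, 75.3% of all interval lines. The bins below it held 24, 43, 78 and 56 plus lines from the Ighd1-1 side onward, and those above it 33, 15, 21 and 12. Adam6b held 16 lines, 11 of them in plus orientation, and Adam6a held 0. The interval was bounded sharply on the VH side, where the last 1 kb held 0 lines and the next 1 kb, already VH, held 1424 plus lines. On the Ighd1-1 side the first 1 kb held 3 plus lines against 18 in the 1 kb before it.

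**Figure D1:**
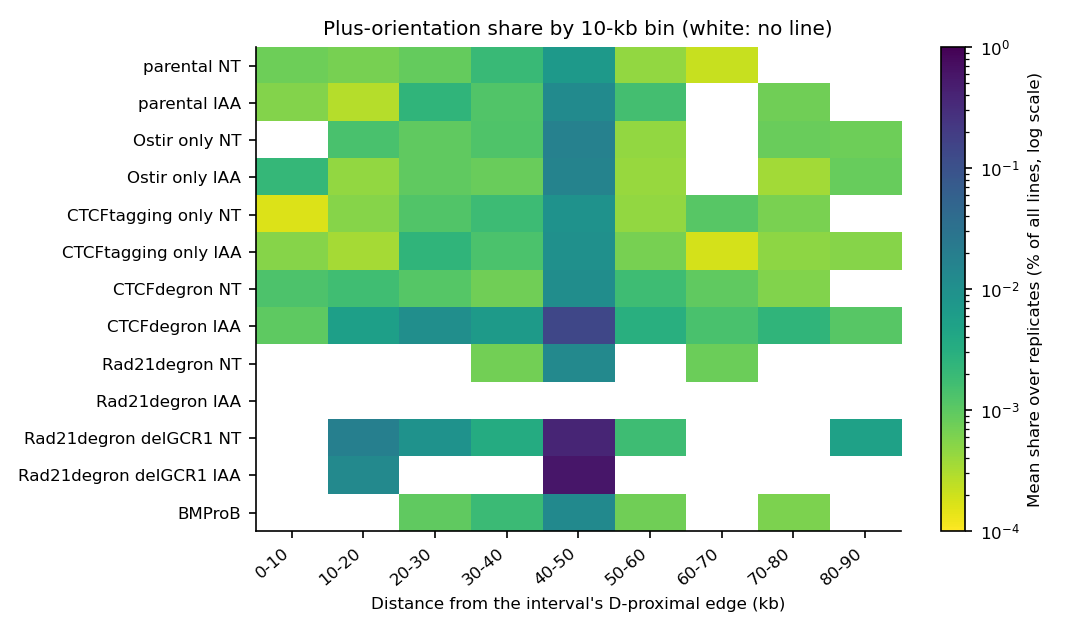
Mean share of all junction lines in plus orientation (colour, percent, log scale, white where there is no line) for each group and each 10-kb bin, counted from the Ighd1-1 edge of the interval. The bin from 40 to 50 kb, which holds Ighd3-1, is the darkest in every group with interval lines, and most so in CTCFdegron cells with IAA and both IGCR1deleted groups.

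Joins just outside the interval, between it and Ighd1-1, were fewer in CTCFdegron cells with IAA than without, while those inside were more. From 0.5 to 3.5 kb upstream of Ighd1-1, parental untreated cells held 1.02% ± 0.0939 of lines (SD, n = 4) and CTCFdegron untreated cells 0.839% ± 0.229 (n = 6). CTCFdegron cells with IAA held 0.186% ± 0.0661 (n = 6) there, and untreated IGCR1deleted Rad21degron cells 0.146% ± 0.0893 (n = 4). In CTCFdegron cells the treated replicates (0.0981% to 0.265%) lay below all untreated ones (0.491% to 1.06%). With IAA the same stretch was higher in control lines, at 1.81% ± 0.131 in parental cells, where the treatments did not overlap, 1.32% ± 0.423 against 0.906% ± 0.280 in Ostir1 knock in cells and 1.54% ± 0.432 against 0.961% ± 0.340 in CTCF-mAID-GFP cells. Bone marrow held 0.398% ± 0.105 there and Rad21degron cells with IAA 0.0148% ± 0.0256, and these groups were also low or at 0 inside the interval. These values were not tested. Beyond 4 kb, and through the first kilobases of the interval, hardly a junction was found in any of the 6 groups plotted. Ighd1-1 itself took 62.3% ± 7.18 of lines in untreated CTCFdegron cells and 27.7% ± 4.96 with IAA.

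**Figure D2:**
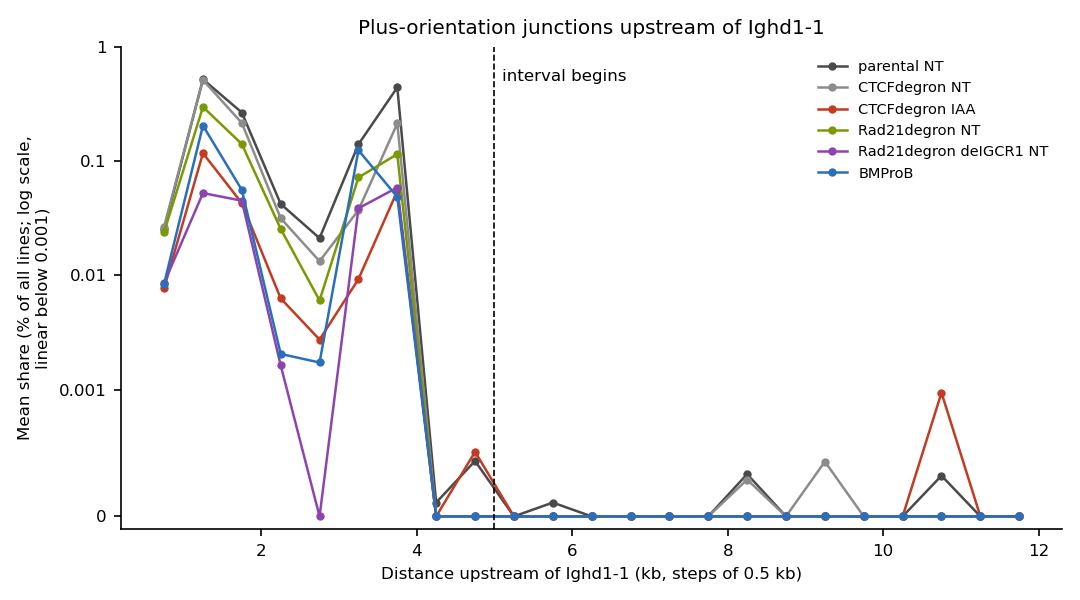
Mean share of all junction lines in plus orientation (percent, log scale, linear near 0) against distance upstream of Ighd1-1 (kb) in 6 groups, with a dashed line where the interval begins. Junctions fill the stretch up to 4 kb, highest in untreated parental cells at most distances, and are nearly absent from there through the first kilobases of the interval.

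In CTCFdegron cells, IAA raised the share of joins in the interval. CTCF and Rad21 protein were not measured in these files, so loss of CTCF or Rad21 below means IAA in the degron line. In untreated CTCFdegron cells the lowest of 6 replicates held 0.00724% of its lines in the interval in plus orientation, the median was 0.0145% and the highest was 0.0346%. With IAA the lowest held 0.103%, the median was 0.185% and the highest was 0.228%. The groups did not overlap. The mean rose 8.98-fold, from 0.0192% ± 0.0118 to 0.173% ± 0.0444 (SD over 6 replicates in each group; exact permutation p = 0.00216, two-sided and the lowest that 6 against 6 can reach; adjusted p = 0.0281 over 39 tests). All 12 of these replicates lie in 1 sequencing run, so run does not separate them. In the limma tests of 10-kb bins given below, 57 of 63 bins passed in this comparison (90.5%), most of them higher. A rise with IAA was thus not particular to the interval. Relative to VH lines, the interval share overlapped between the treatments, at 0.517% untreated and 0.631% with IAA. Before these results are read, 4 libraries titled as IAA have a treatment label that does not name IAA, 3 of them in the CTCFdegron group and 1 in the IGCR1deleted group. Without them the CTCFdegron means were 0.173% and 0.0192% (exact permutation p = 0.00216).

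**Figure D3:**
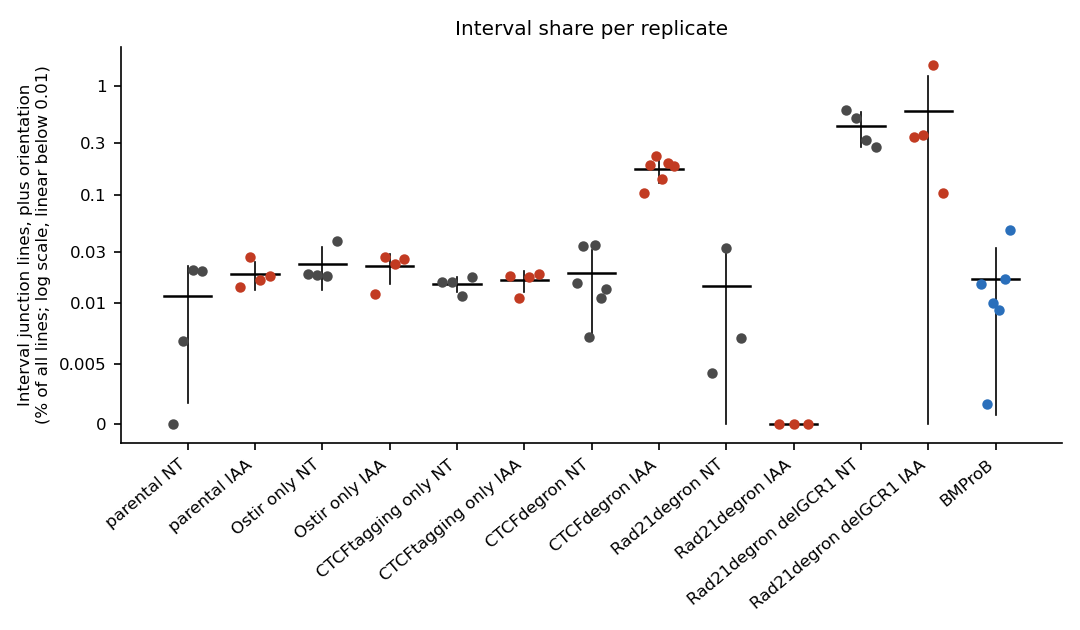
Share of all junction lines in the interval in plus orientation (percent, log scale, linear near 0), by group. Points are replicates, bars are means and vertical lines 1 SD, and the CTCFdegron replicates with IAA (0.103% to 0.228%) lie above all untreated CTCFdegron replicates (0.00724% to 0.0346%).

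Ighd3-1 alone showed the same separation. Its share was 0.0611%, 0.0719%, 0.103%, 0.104%, 0.0969% and 0.0938% in the CTCFdegron replicates with IAA, and 0.00166% to 0.0103% in the untreated ones. Relative to Ighd1-1, it took 3.28 ± 0.893 lines per 1000 Ighd1-1 lines with IAA and 0.0914 ± 0.0480 without. The 43.9-kb site, by contrast, overlapped between the treatments, with a mean of 0.00750% ± 0.00577 with IAA and 0.00257% ± 0.00429 without. The 42.6-kb site held 0.0162% ± 0.00677 with IAA and 0.000853% ± 0.00209 without, and its groups did not overlap. The 42.5-kb site was listed in 0 lines without IAA and held 26 lines, 0.0142% ± 0.0113, with it. The named sites were picked by mean share over groups, CTCFdegron cells with IAA among them. The shares of the 42.5-kb and 42.6-kb sites were highest in these cells and in untreated IGCR1deleted cells. Contrasts between groups at single named sites, here and below, therefore depend in part on that choice. With junctions within 100 bases of Ighd3-1 left out, the interval share still rose, from 0.0136% to 0.0844% (exact permutation p = 0.00216).

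In the control lines, IAA gave no change of the interval share that passed the test. Parental replicates held 0%, 0.00690%, 0.0204% and 0.0200% untreated and 0.0143%, 0.0266%, 0.0163% and 0.0180% with IAA (difference 0.00699%, exact permutation p = 0.286). In the 1 run that holds both treatments, with 2 replicates of each, the parental mean was 0.0172% with IAA and 0.0202% without, so the direction turned. Ostir1 knock in replicates held 0.0186%, 0.0182%, 0.0179% and 0.0375% untreated and 0.0122%, 0.0268%, 0.0231% and 0.0259% with IAA (exact permutation p = 0.914). CTCF-mAID-GFP tagging replicates held 0.0158%, 0.0156%, 0.0116% and 0.0174% untreated and 0.0180%, 0.0111%, 0.0177% and 0.0188% with IAA (exact permutation p = 0.514). In each of these lines the treatments overlapped. The change with IAA was taken over both orientations together, as log2 of the ratio between replicates of the same number. It was 3.34 in CTCFdegron cells, 0.43 in parental cells, -0.06 in Ostir1 knock in cells and 0.07 in CTCF-mAID-GFP cells. The CTCFdegron change was larger than the parental one by 2.9 (exact permutation p = 0.0119), than the Ostir1 knock in one by 3.39 (exact permutation p = 0.00476) and than the CTCF-mAID-GFP one by 3.27 (exact permutation p = 0.00476), each the smallest p its design allows. The parental value rests on 3 pairs, since 1 untreated replicate of 17607 lines held no interval line. Over bins, same-numbered replicates deviated together (every correlation over 0.1) in the 3 control lines but not in CTCFdegron cells. Those correlating best with their own number were 2 of 4 in parental, 2 of 4 in Ostir1 knock in and 4 of 4 in CTCF-mAID-GFP cells. In parental cells, 2 untreated replicates lie in a run without treated ones. Pairing by number is thus uncertain, and it lacks this support in CTCFdegron cells. From group means, without pairing, the changes were 3.14, 0.59, -0.07 and 0.08 in the same order, and the CTCFdegron one was larger by 2.55, 3.21 and 3.06 (exact permutation of treatment within lines, p = 0.0109, 0.000989 and 0.00148). That permutation assumes no effect of IAA in either line, so its p-values do not test whether the changes are equal. Untreated CTCFdegron cells did not separate from untreated parental cells (exact permutation p = 0.314).

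Deletion of IGCR1 went with the highest shares. Untreated IGCR1deleted Rad21degron replicates held 0.600%, 0.502%, 0.319% and 0.277% of their lines in the interval in plus orientation, and untreated Rad21degron replicates with IGCR1 held 0.00422%, 0.0320% and 0.00716%. Every replicate of the deleted line lay above every replicate of the other. The means were 0.424% ± 0.152 (n = 4) and 0.0145% ± 0.0153 (n = 3), a 29.3-fold difference with the smallest p that 4 against 3 can give (exact permutation p = 0.0286, adjusted p = 0.186 over 39 tests, which does not pass). Without the second Rad21degron replicate, the latter mean was 0.00569%. The deleted line has the b libraries only and shares no sequencing run with the other, so line, run and deletion cannot be told apart. Ighd3-1 held 0.363%, 0.385%, 0.188% and 0.228% in the deleted replicates, or 28.2 ± 9.36 lines per 1000 Ighd1-1 lines, against 0.0474 ± 0.0464 in Rad21degron cells. Of the plus lines of the deleted line, Ighd3-1 took 70.2% and the 43.9-kb site 9.77%. With junctions within 100 bases of Ighd3-1 left out, the means were 0.134% and 0.0124% (exact permutation p = 0.0571).

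The share was lower after CTCF loss than after IGCR1 deletion. CTCFdegron cells with IAA held 0.252% less of their lines in the interval than untreated IGCR1deleted Rad21degron cells, a ratio of 0.407, and the groups did not overlap (exact permutation p = 0.00476, adjusted p = 0.0464). Without the Ighd3-1 surroundings the shares were 0.0844% and 0.134% (exact permutation p = 0.205). The 21.1-kb site held 0.00501% ± 0.00429 after CTCF loss and 0.0169% ± 0.00680 in the IGCR1deleted line. The 42.6-kb site held 0.0162% ± 0.00677 and 0.0175% ± 0.0171 in the same order. These groups share no run and differ in degron, so what sets these differences cannot be told apart.

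Joins in the interval were not detected after Rad21 loss where IGCR1 was intact. The Rad21degron replicates with IAA held 0 interval lines among 5566 lines in all, which allows a share of up to 0.0539% and so includes the untreated mean of 0.0145% (counting error only; exact permutation p = 0.100, the smallest for 3 against 3). A loss was therefore not detectable at this depth. In the IGCR1deleted line, interval joins were found with IAA in all 4 replicates. Its replicates held 0.337%, 0.357%, 1.55% and 0.104%, overlapping the untreated range, with means of 0.588% ± 0.654 and 0.424% ± 0.152 (exact permutation p = 0.857). The high value is replicate 3, with 25 interval lines among 1608. The 44 interval lines of the 4 treated replicates were 17 distinct ones. In replicate 3 the 25 lines were 6 distinct ones, and 12 of the 25 shared 1 position and insert length at Ighd3-1. Without that replicate the treated mean was 0.266%, and without the Ighd3-1 surroundings the means were 0.0791% with IAA and 0.134% untreated (exact permutation p = 0.4), so in both cases the direction turned. Within the run that holds 3 replicates of each treatment the means were 0.266% with IAA and 0.460% without, and within the other they were 1.55% and 0.319% from 1 replicate each.

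Measured against VH joins, the interval behaved differently. As a percentage of all lines upstream of the interval's Ighd1-1 edge, that is interval and VH together, interval lines made up 5.56%, 5.67%, 17.7% and 1.80% in the IGCR1deleted Rad21degron replicates with IAA, where VH lines numbered 109 to 153 per replicate. The untreated mean was 0.826% ± 0.265 (n = 4) and the treated one 7.69% ± 6.93, with no overlap (exact permutation p = 0.0286, the smallest possible; adjusted p = 0.186). The treated 17.7% rests on 25 interval lines, which were 6 distinct ones. The treated mean was higher in both runs, at 4.34% against 0.892% and at 17.7% against 0.625%. With junctions within 100 bases of Ighd3-1 left out, the treated mean was still higher, at 1.18% against 0.261%, but the difference did not pass (exact permutation p = 0.143). In CTCFdegron cells this percentage was 0.517% ± 0.367 untreated and 0.631% ± 0.166 with IAA, and it overlapped (exact permutation p = 0.5). Rad21degron cells with IAA had 5 VH lines in all, too few for this measure.

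**Figure D4:**
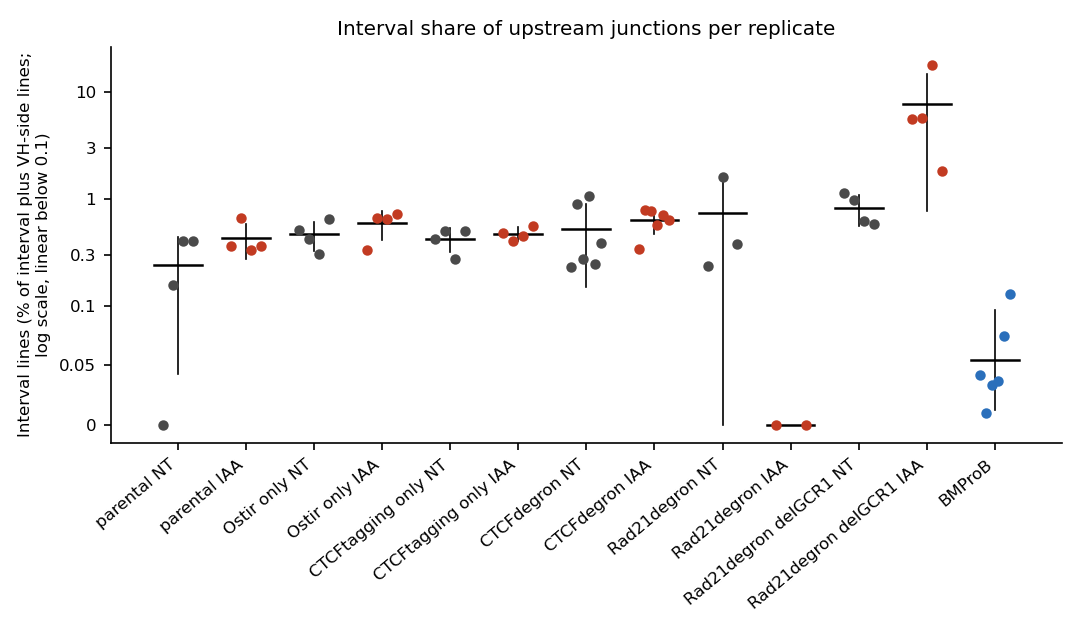
Interval lines as a percentage of interval and VH lines together (log scale, linear near 0), by group. Points are replicates, bars are means and vertical lines 1 SD, and the IGCR1deleted Rad21degron replicates with IAA (1.80% to 17.7%) lie above their untreated replicates.

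In wild-type bone marrow pro-B cells the interval was little used. The lowest of 6 samples held 0.00172% of its lines there in plus orientation, the median was 0.0125% and the highest was 0.0475%, with a mean of 0.0167% ± 0.0159 against 0.0118% ± 0.0101 in untreated parental cells (exact permutation p = 0.710). The 57 plus lines were 19 distinct ones, so the samples rest on few separate joins. Relative to VH the interval share was 0.0543% ± 0.0420 in bone marrow and 0.239% ± 0.197 in untreated parental cells (exact permutation p = 0.0524, adjusted p = 0.279). CTCFdegron cells with IAA lay above bone marrow on both measures without overlap, by 10.3-fold for the share of all lines and by 11.6-fold relative to VH (exact permutation p = 0.00216 and adjusted p = 0.0281 for each). They share no run with the bone marrow, so run and cell type cannot be told apart there. Ighd3-1 held 30 of the 57 bone marrow lines (6 distinct), while the 42.5-kb, 42.6-kb and 21.1-kb sites, Gm16968 and Ighd5-1 held 0.

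In tests of 10-kb bins along the locus with limma voom, the only interval bin with enough lines was the one with Ighd3-1, from 40 to 50 kb in plus orientation. It held 259 lines in CTCFdegron cells with IAA, against 30 untreated and 41 in bone marrow. In untreated IGCR1deleted cells it held 195, against 11 in untreated Rad21degron cells. In these comparisons only the higher group carried the bin over the minimum, so its entry depended on that group. The Ighd3-1 bin rose with IAA in CTCFdegron cells by 3.84 (log2, SE 0.46, limma adjusted p = 3.53e-09), where 57 of 63 bins were called (90.5%) and the median bin moved by 2.78. Of the called bins 54 were higher and 3 lower. Scaled by median of ratios, the Ighd3-1 bin moved by 1.43 and the median bin by 0.38, with 25 bins called higher and 18 lower. It was higher in untreated IGCR1deleted than in untreated Rad21degron cells by 5.47 (SE 0.81, limma adjusted p = 4.58e-05), where 84.2% of bins were called and the median was 0.03. It was lower after CTCF loss than in untreated IGCR1deleted cells by a log2 of -1.41 (SE 0.36, limma adjusted p = 0.000483), where 91.8% were called and the median bin lay 4.34 higher. Against bone marrow it was higher after CTCF loss by 4.79 (SE 0.59, limma adjusted p = 7.25e-10), where 86.4% were called and the median bin lay at -1.57. There 21 called bins were higher and 87 lower, against 34 and 49 under median of ratios. These shares of called bins are so high that a call alone says little about the interval. The comparisons of CTCFdegron cells with IAA share those samples.

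The Ighd3-1 bin did not pass in the other comparisons. IAA moved it by -0.08 in IGCR1deleted cells (limma adjusted p = 0.905, 73.3% of bins called), by 0.62 in parental cells (limma adjusted p = 0.455, 16.7% called), by -0.07 in Ostir1 knock in cells (limma adjusted p = 0.919) and by 0.08 in CTCF-mAID-GFP cells (limma adjusted p = 0.971). In the last of these lines 0 of 66 bins were called by limma and 3 had an unadjusted p under 0.05. In Ostir1 knock in cells 0 of 22 were called and 5 had such a p. With same-numbered replicates as a block, 8 and 9 bins were called in these lines, and 9 in place of 5 in parental cells, and the Ighd3-1 bin was among none of them. Untreated Rad21degron cells differed from parental ones by -0.41 in the bin (limma adjusted p = 0.660, 69.6% called), and bone marrow by -1.01 (limma adjusted p = 0.280, 96.2% called). Under median of ratios the bone marrow difference was -3.25 and passed (limma adjusted p = 0.00218), and the Rad21degron one turned to 0.20, that of IAA in IGCR1deleted cells to 0.09 and that in Ostir1 knock in cells to 0.08, without passing.

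Interval joins were of 2 kinds by the length of sequence inserted between bait and prey. A D joined straight to JH4 leaves few inserted bases, while a join onto a DJ carries that D within the insert. Over all plus interval lines the median insert was 4 bases, with 455 lines (38.6%) at 7 or more, called long here, a limit chosen after the lengths were seen. Ighd1-1 lines had a median of 1 base and 4.18% long inserts, and lines in the first 100 kb of the VH side a median of 14 and 86.7%. Ighd3-1, the 43.9-kb site, the 21.1-kb site, Gm16968 and Ighd5-1 were mostly short, with medians of 2 to 2.5 bases and 10.8% to 22.2% long. The 42.6-kb, 42.5-kb, 35.3-kb and 30.8-kb sites were mostly long, with medians of 13 to 16 bases and 77.8% to 89.1% long. Of 424 inserts of at least 8 bases, 273 (64.4%) held 8 bases in a row of 1 of the 21 annotated D segments, against 14.6% at Ighd1-1. The inserts counted at Ighd1-1 tended to be shorter, which leaves less room for such a stretch. The percentages are therefore not matched for length, and the VH side was not examined in this way.

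**Figure D5:**
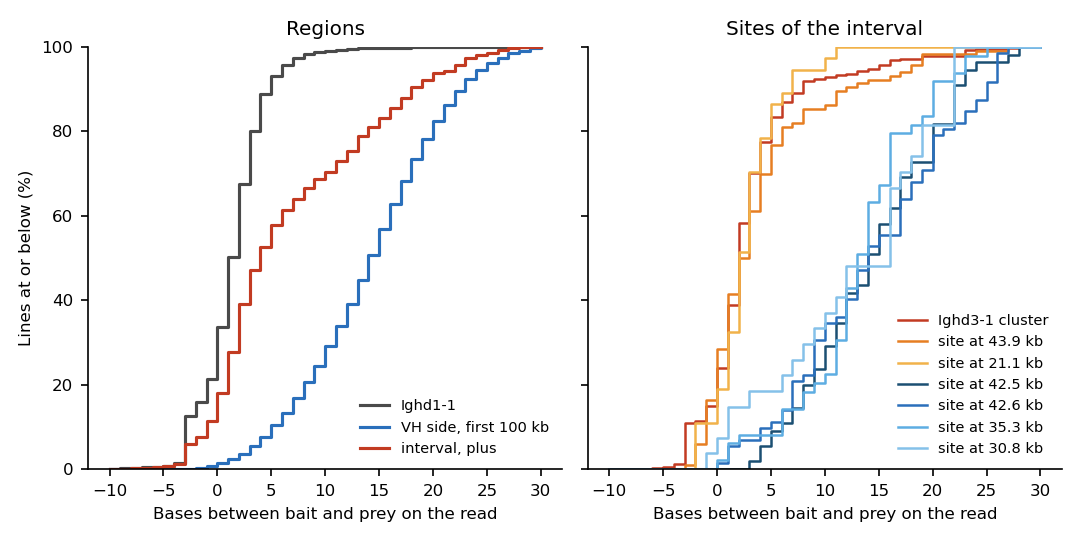
Cumulative share of lines (percent) at or below each number of bases between bait and prey, for Ighd1-1, the VH side and the interval on the left and for 7 interval sites on the right. Ighd3-1 and the sites at 43.9 and 21.1 kb rise early as Ighd1-1 does, and the sites at 42.5, 42.6, 35.3 and 30.8 kb rise late as the VH side does.

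Lines of the Ighd3-1 site lay at its 3′ end and, in a smaller cluster, peaked past its 5′ heptamer. At its 3′ end lay 476 lines, with a median insert of 2 bases and 6.09% long. The smaller cluster of 52 lines peaked 24 bases further upstream, the 17 bases of the segment plus a heptamer. At that peak the prey begins past both and holds no base of Ighd3-1. This cluster had a median insert of 13.5 bases and 76.9% long. The sequence beyond the 5′ end of the segment is printed because the cluster peaks just past its heptamer. It is read on the plus strand, away from the segment, with the heptamer in capitals.
Ighd3-1 5′ flank, chr12:114763541-114763579: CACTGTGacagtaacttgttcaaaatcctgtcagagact
In that direction the heptamer matched the consensus at 6 of 7 bases, and the nonamer TCAAAATCC after 12 bases at 7 of 9. Read back on the minus strand, from the cluster's peak toward the segment, the same 7 bases are CACAGTG, the full consensus. The 5′ cluster took 7 of 162 Ighd3-1 lines in CTCFdegron cells with IAA, 13 of 151 in untreated IGCR1deleted cells, 0 of 38 in those cells with IAA and 6 of 30 in bone marrow. Counted as distinct lines, these were 7 of 139, 12 of 119, 0 of 13 and 1 of 6 in the same order.

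The mix of short and long inserts varied among groups, as a description. In untreated IGCR1deleted cells 172 plus lines were short and 43 long, and with IAA 44 were short and 0 long. Those 44 were 17 distinct lines. CTCFdegron cells with IAA had 191 short and 130 long lines, and untreated 36 and 17. Both kinds rose with CTCF loss, the short share from a range of 0.00724% to 0.0257% to one of 0.0798% to 0.118%, and the long share from 0% to 0.0139% to 0.0235% to 0.120%, without overlap in either, and neither was tested. Of the 10-kb bins tested in that comparison, 90.5% were called by limma, most of them higher. A rise was thus not particular to these joins. Parental untreated cells had 44 short and 49 long lines, and bone marrow 28 and 29.

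Minus lines, as joining by inversion would give, were rare. The 13 of them lay in 7 replicates, 10 in the 10 kb nearest Ighd1-1 and 3 in the Ighd3-1 bin. Their median insert was 14 bases, and all 8 inserts of at least 8 bases held a stretch of a D. No comparison of the minus share passed, with exact permutation p-values of 0.400 or more.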

How the data were processed

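The deposited tables hold 1 line per junction, with chromosome, position, strand and the ends of bait and prey in the read. Per the submitters' processing notes, Bowtie2 and mm9 were used, and the labels name a hybrid of AJ851868 and mm9, which was not used here. Positions are as the files give them, with mm9 positions from matching read sequence with blastn 2.17.0. Junctions of a and b libraries lay 6 bases apart and were shifted to 1 scale. Shares are percent of all lines of a library, averaged over the a and b libraries of a replicate. Group means were compared with two-sided exact permutation tests over replicates, adjusted by Benjamini-Hochberg over 39 tests. Bins of 10 kb with a mean of at least 10 lines were fitted with limma 3.58.1 voom in R 4.3.3, tested on simulated data. IGCR1deleted with IAA against Rad21degron with IAA had too few bins for a fit at that minimum.

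The interval, the sites and the lists were chosen with earlier results of these data known. Sites named are the 8 plus and 4 minus sites with the highest mean share, with groups weighted equally, and those on an annotated D. Same-numbered replicates deviated together (every correlation over 0.1) in parental, Ostir1 knock in and CTCF-mAID-GFP cells, so numbers were taken to pair them. Every replicate correlated best with its own number only in CTCF-mAID-GFP cells, so the pairing is uncertain in the others. The 12 off-target libraries were not used.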

Additional observations from a re-analysis of the deposited data

Results flagged for a closer look

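Of 28 sets of replicates examined, 9 had a sample whose gap to the others passed Dixon's limit. By chance about 1 in 20 would, where values vary continuously. In plus orientation these were bone marrow replicate 6, at 0.0475% of lines, CTCF-mAID-GFP with IAA replicate 2, low at 0.0111%, and untreated Ostir1 knock in replicate 4, at 0.0375%. For the share relative to VH it was parental with IAA replicate 2, at 0.663%. In minus orientation 5 groups had lines in 1 replicate only, so the gap was the whole range and passed the limit by construction. The 1 in 20 does not apply to them. They were bone marrow replicate 2 at 0.00172%, CTCFdegron with IAA replicate 2 at 0.00367%, untreated CTCFdegron replicate 2 at 0.00259%, untreated CTCF-mAID-GFP replicate 4 at 0.00180% and untreated IGCR1deleted replicate 2 at 0.00652%.

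The effect of IAA on the interval share, over both orientations together, differed between lines. It was larger in CTCFdegron cells than in parental cells by 2.9 (log2; exact permutation p = 0.0119, adjusted p = 0.0119), than in Ostir1 knock in cells by 3.39 (exact permutation p = 0.00476, adjusted p = 0.00714) and than in CTCF-mAID-GFP cells by 3.27 (exact permutation p = 0.00476, adjusted p = 0.00714).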

How the results depend on the processing

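Each value was recomputed with b libraries only, identical junctions counted once, Igh lines as the denominator, the Ighd3-1 surroundings left out, other bin widths, filters and scalings, a replicate block, and each replicate left out. After the data had been seen, leaving out the libraries whose label lacks IAA was added, and it changed none of 15 values. For shares and line differences, passing in this section means an unadjusted p under 0.05, and for bins a limma adjusted p under 0.05. Of 873 recomputed values and counts, 28 changed side of the threshold or moved by more than the limit. Values that passed kept their sign in all 193 recomputations, and those that did not pass turned sign in 40 of 503. The interval share relative to VH in bone marrow minus parental cells, which missed the threshold, passed with b libraries only (-0.231), identical junctions once (-0.191) and without Ighd3-1 (-0.182), and ran from -0.265 to -0.131 with a replicate left out. Without Ighd3-1 the same measure in IGCR1deleted cells with IAA minus untreated fell to 0.919, and the plus shares of IGCR1deleted minus Rad21degron cells to 0.122 and of CTCFdegron with IAA minus IGCR1deleted cells to -0.0495, none of which passed. With a replicate left out the IGCR1deleted value ran from 3.52 to 8.83, and it missed the threshold without any 1 untreated replicate (exact permutation p = 0.0571 each). The plus share of untreated IGCR1deleted minus Rad21degron cells ran from 0.352 to 0.459 and did not pass with any 1 replicate left out (exact permutation p from 0.0667 to 0.1), designs too small to pass. The cause of these changes was not tested.

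With a minimum mean of 1 line, more interval bins were tested, and those called rose from 1 to 2 for untreated IGCR1deleted against Rad21degron cells, 1 to 4 for CTCFdegron with and without IAA, 1 to 2 for CTCFdegron with IAA against IGCR1deleted cells and 1 to 3 against bone marrow. IGCR1deleted against Rad21degron cells, both with IAA, could be fitted only at that minimum and at 5-kb bins; at that minimum 4 of 17 bins were called, among them the Ighd3-1 bin (log2 3.66, limma adjusted p = 0.0220). Over all bins, counts then went from 16 to 27, 57 to 128 and 56 to 105 in the first 3 of these. Median-of-ratios scaling called 1 interval bin for bone marrow against parental cells, where 0 were called before. The count for IAA in parental cells, 5, became 13 with 5-kb bins and 3 with identical junctions once. With the replicate block, the sign-flip test of the CTCFdegron plus share gave an exact p of 0.03125, the smallest it can give. Blocked, 3 values whose unadjusted p had been under 0.05 did not pass, in designs whose smallest p is above the threshold. They were 6.86 (exact p = 0.125) for IGCR1deleted cells with IAA minus untreated relative to VH, and plus shares of 0.459 (exact p = 0.25) for IGCR1deleted minus Rad21degron cells and -0.260 (exact p = 0.125) for CTCFdegron with IAA minus IGCR1deleted cells. Unblocked and adjusted over 39 tests, only the last had passed (exact permutation, adjusted p = 0.0464), and the others had not (adjusted p = 0.186 each). The bone marrow minus parental plus share, which had not passed, turned to -0.00274. Same-numbered replicates of the other comparisons share only a number, and in 1 of 13 comparisons did every replicate correlate best with its own. Depth limits the Rad21degron group with IAA most, with 1263 to 2492 lines per replicate.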
